A study of Homo sapiens with 4 samples.

Results

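MIR423 and MIR3184 are miRNA genes that lie on opposite strands of the same stretch of chromosome 17, so that each mature miRNA of one hairpin is complementary to a mature miRNA of the other. The 4 mature miRNAs of this locus (hsa-miR-423-5p, hsa-miR-423-3p, hsa-miR-3184-5p and hsa-miR-3184-3p, written without the species prefix from here on) were taken by name from the 2656 mature miRNAs listed in the deposited counts, and all 4 were found. They were chosen by earlier results of these data, in which the ratios of miR-423-5p and miR-3184-3p in the EVEN and ODD pull-downs over LacZ had passed 2-fold, so their values are given as a description, with no test. The libraries came from RD cells, an established human line of embryonal rhabdomyosarcoma, which is a tumour with features of skeletal muscle. The cells carried no treatment. Probes carrying biotin, antisense to a chosen RNA, were added to native lysates and recovered with streptavidin beads. The EVEN pull-down and the ODD pull-down used separate probe sets against exon 2 of HIPK3, the exon that forms the circular RNA circHIPK3, the LacZ pull-down used control probes against a bacterial mRNA, and the input made up the last library. Each of the 4 groups was 1 library from 1 biological replicate, so nothing here could be checked against the spread between replicates, and every interval covers counting error only.

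A miRNA gene is transcribed into a longer RNA that folds back on itself into a hairpin. Drosha and Dicer cut the hairpin into a short duplex, and either strand of the duplex, the 5p or the 3p arm, can be loaded into an Argonaute protein. The loaded arm finds target RNAs mainly through its seed, bases 2 to 8 counted from its 5′ end. miR-423-5p is found in many tissues and in blood plasma. Where hairpins are encoded on both strands of a locus, the mature miRNAs of one are antisense to those of the other.

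The mature sequences, from RefSeq on GRCh38.p14, are shown because complementarity and seeds tie these miRNAs to one another. Each is written 5′ to 3′ with the seed in capitals.
miR-423-5p: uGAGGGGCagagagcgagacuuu
miR-3184-3p: aAAGUCUCgcucucugccccuca
miR-423-3p: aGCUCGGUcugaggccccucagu
miR-3184-5p: uGAGGGGCcucagaccgagcuuuu
miR-3184-3p is the exact reverse complement of miR-423-5p over all 23 bases, and both occupy chr17:30117095-30117117, miR-423-5p on the plus strand and miR-3184-3p on the minus strand. miR-423-3p, at chr17:30117131-30117153 on the plus strand, pairs with miR-3184-5p, at chr17:30117128-30117151 on the minus strand, over 21 bases. miR-423-5p begins with the same 8 bases as miR-3184-5p, so these miRNAs from opposite strands share the seed GAGGGGC. None of the other mature miRNAs among 2367 with both a count and a RefSeq sequence carried this seed. The seeds GCUCGGU of miR-423-3p and AAGUCUC of miR-3184-3p were shared with no other miRNA in that set.

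The MIR423 hairpin, 94 bases at chr17:30117079-30117172, lies on the plus strand within NSRP1, which encodes a nuclear speckle protein that acts in splicing. Of 12 NSRP1 transcripts in GENCODE 29 that span the hairpin, 11 have it in an intron. The other 1 has it in exon 1, chr17:30116992-30117332, outside the annotated coding sequence. The MIR3184 hairpin, 75 bases at chr17:30117086-30117160 on the minus strand, lies inside the single exon of the noncoding gene AC104984.5 and in an intron of the noncoding gene AC104984.2.

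**Figure D1:**
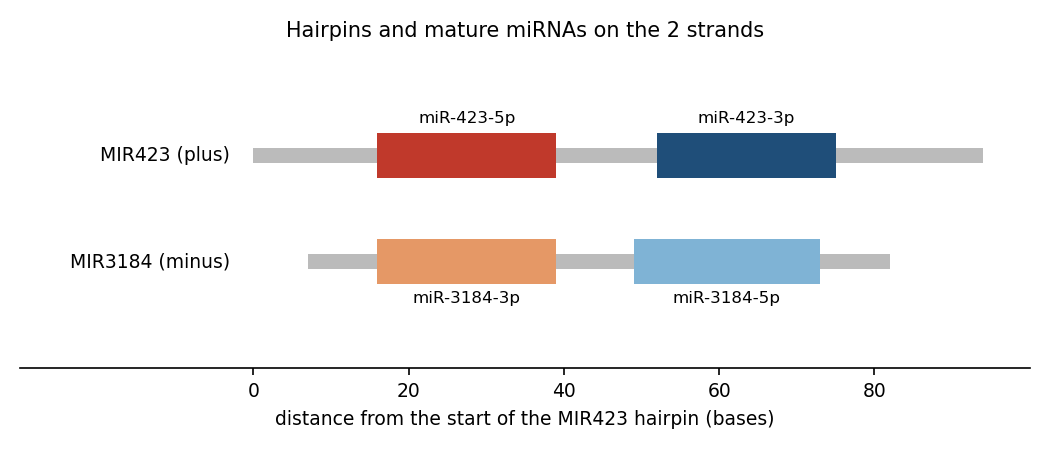
The MIR423 hairpin on the plus strand and the MIR3184 hairpin on the minus strand are drawn to scale as grey bars, with their mature miRNAs as coloured boxes, against the distance in bases from the start of the MIR423 hairpin. miR-423-5p and miR-3184-3p cover the same 23 bases, and miR-423-3p and miR-3184-5p overlap by 21.

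The libraries held 98950 miRNA reads for EVEN, 426450 for ODD, 425395 for LacZ and 2987858 for the input. Where a miRNA had 0 reads, its CPM (the read count scaled by the library's total of miRNA reads) could be as high as 30.3 in EVEN, 7.03 in ODD, 7.05 in LacZ and 1.00 in the input. The skeletal muscle miRNAs miR-206, miR-1-3p, miR-133a-3p and miR-133b, markers of the tissue that this tumour resembles, were all detected and together took 10.4%, 3.50%, 6.70% and 6.21% of EVEN, ODD, LacZ and input reads. Most of this was miR-206, at 95311, 32745, 59009 and 42097 CPM. miR-1-3p was lower in EVEN, ODD and LacZ (1627, 1402 and 4819 CPM) than in the input (13995). So was miR-133b (364, 30.5 and 134 against 1021 CPM). miR-133a-3p was higher than in the input (5012 CPM) only in EVEN (6478). The neural marker miR-9-5p was also present at 2112, 1374, 8063 and 10059 CPM in these libraries, while miR-124-3p had 1 read in the input and 0 in every pull-down. The 4 blood markers together stayed between 30.5 CPM (ODD) and 212 CPM (EVEN), with miR-451a at 0 reads throughout. The liver marker miR-122-5p had at most 14.1 CPM. The 3 epithelial markers together ran from 97.1 CPM in the input to 856 CPM in ODD. That rise came from miR-205-5p, at 1.34 CPM in the input and 832 CPM in ODD. miR-200c-3p and miR-141-3p were lower in ODD than in the input, at 23.4 against 30.1 CPM and 0 against 65.6 CPM. The part of these differences in the results below was not tested.

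The 4 miRNAs together took 2.46% of EVEN reads and 2.60% of ODD reads, against 0.965% of LacZ reads and 0.193% of input reads. All 4 had the lowest level in the input. The arms then parted among the pull-downs. miR-423-5p and its antisense miR-3184-3p were higher with both circHIPK3 probe sets than with LacZ probes. miR-423-3p and its antisense miR-3184-5p were highest with ODD probes. With EVEN probes these 2 were above the input but below LacZ. Such a fall from LacZ to EVEN was common. Of 289 miRNAs with at least 20 reads in EVEN or LacZ, 51.2% were at least 2-fold lower in EVEN.

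miR-423-5p, the most abundant of the 4 in every library, had 17736 CPM in EVEN (95% exact binomial interval 16923 to 18578), 16487 in ODD (16107 to 16874), 5282 in LacZ (5067 to 5505) and 1045 in the input (1009 to 1083). The EVEN and ODD levels were the closest neighbours in this order, and LacZ lay between them and the input. It ranked 13th of all listed miRNAs by reads in EVEN and 10th in ODD, against 35th in LacZ and 91st in the input. These levels rest on 1755, 7031, 2247 and 3123 reads in EVEN, ODD, LacZ and input.

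miR-3184-3p, the antisense of miR-423-5p, followed the same order at a lower level. It had 5821 CPM in EVEN (5357 to 6315; 576 reads), 4453 in ODD (4255 to 4657; 1899 reads), 1488 in LacZ (1374 to 1609; 633 reads) and 216 in the input (199.9 to 234; 646 reads). Its rank was 26th in EVEN and 27th in ODD, against 76th in LacZ and 170th in the input.

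miR-423-3p, the other arm of the MIR423 hairpin, had its highest level with ODD probes. It had 798 CPM in EVEN (632 to 995; 79 reads), 3954 in ODD (3767 to 4147; 1686 reads), 2149 in LacZ (2012 to 2292; 914 reads) and 562 in the input (535 to 589; 1678 reads). EVEN was thus the lowest pull-down and lay nearest to the input. Its counting interval there was also wide.

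miR-3184-5p, the antisense of miR-423-3p and the rarest of the 4 in every library, had the same order of libraries. It had 283 CPM in EVEN (188 to 409; 28 reads), 1128 in ODD (1029 to 1233; 481 reads), 733 in LacZ (654 to 819; 312 reads) and 109 in the input (97.3 to 121; 325 reads). Its EVEN level is the least certain value of the locus, since it rests on 28 reads.

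**Figure D2:**
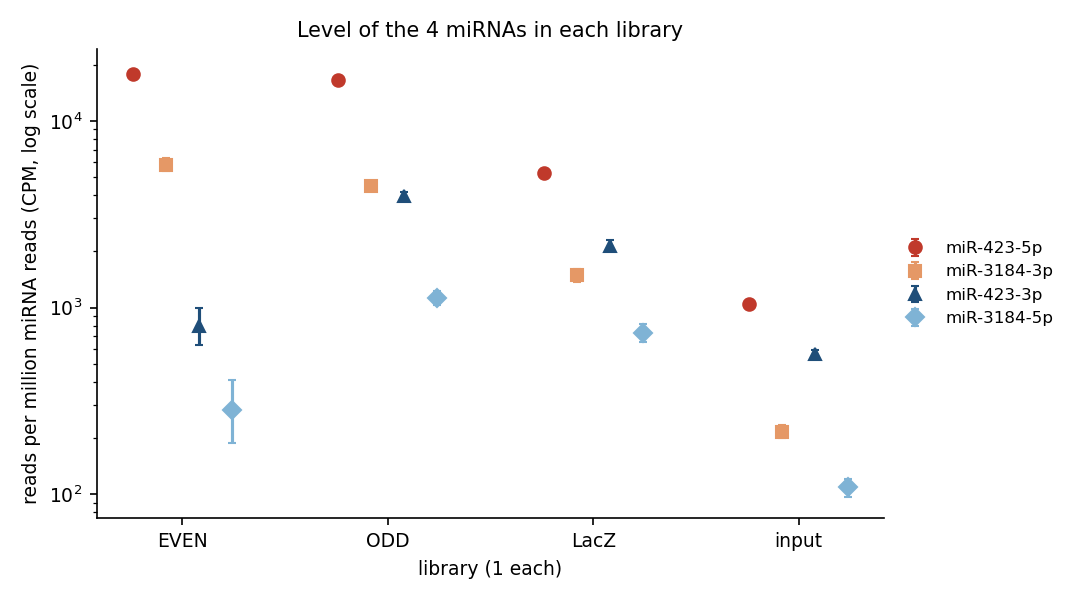
Level of each miRNA in CPM, on a log axis, in the EVEN, ODD, LacZ and input libraries (1 each). Points are single libraries and bars are 95% exact binomial counting intervals. miR-423-5p and miR-3184-3p sit high in both EVEN and ODD, while miR-423-3p and miR-3184-5p fall to 798 and 283 CPM in EVEN, against 3954 and 1128 CPM in ODD.

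Setting EVEN against LacZ addresses what the EVEN probes brought down over the control probes. miR-423-5p was 3.36-fold higher with EVEN probes (95% exact conditional counting interval 3.15 to 3.58) and miR-3184-3p 3.91-fold higher (3.49 to 4.39). miR-423-3p was 2.69-fold lower with EVEN probes (2.14 to 3.43) and miR-3184-5p 2.59-fold lower (1.76 to 3.96). The 4 miRNAs of the locus were thus divided by arm, 2 at least 2-fold higher and 2 at least 2-fold lower, and each miRNA stood beside its antisense partner.

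These calls used every miRNA with at least 20 reads in EVEN or LacZ, of which 9.69% were at least 2-fold higher and 51.2% at least 2-fold lower. The contrast was in view when the locus was chosen, so nothing is read from the counts of 2 and 2. The median log2 ratio of the 289 miRNAs tested was -1.06. The log2 ratios of miR-423-5p (1.75) and miR-3184-3p (1.97) lay 2.81 and 3.03 above that median, whereas those of miR-423-3p (-1.42) and miR-3184-5p (-1.35) lay close to it, 0.36 and 0.29 below it on the log2 scale. miR-3184-5p, with a log2 ratio of -0.94 under median-of-ratios size factors and -0.93 when the 10 most abundant miRNAs were dropped from library totals, was then no longer past 2-fold.

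The ODD pull-down against LacZ asks the same of the second probe set, with the same LacZ library. miR-423-5p was 3.12-fold higher with ODD probes (2.98 to 3.27) and miR-3184-3p 2.99-fold higher (2.73 to 3.28). miR-423-3p had a ratio of 1.84 (1.70 to 2.00) and miR-3184-5p of 1.54 (1.33 to 1.78), both short of 2-fold. No member of the locus was lower with ODD probes.

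Of 300 miRNAs tested in ODD against LacZ, 13% passed 2-fold upwards and 70.3% downwards, beside 2 and 0 of the 4 here. The median log2 ratio was -1.79, and all 4 members lay well above it: their log2 ratios were 1.64 for miR-423-5p, 1.58 for miR-3184-3p, 0.88 for miR-423-3p and 0.62 for miR-3184-5p. TMM factors moved the median of all tested miRNAs to -0.50, and all 4 miRNAs were then past 2-fold, as they also were with median-of-ratios size factors and when the 10 most abundant miRNAs were dropped. The count of 2 higher miRNAs with ODD probes therefore depends on the scaling, whereas the sign of each log2 ratio was the same under all of these scalings.

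The EVEN and ODD probes, which target the same exon, were set against each other directly. miR-423-5p differed little by library totals, with a ratio of EVEN over ODD of 1.08 (1.02 to 1.13), and miR-3184-3p had a ratio of 1.31 (1.19 to 1.44). miR-423-3p was 4.95-fold lower with EVEN probes (3.95 to 6.29) and miR-3184-5p 3.99-fold lower (2.72 to 6.06). Of 203 miRNAs tested, 37.9% passed 2-fold upwards and 18.2% downwards. The median log2 ratio of the tested miRNAs was 0.64 by totals, but -0.38 after TMM scaling and -0.40 by median-of-ratios scaling. The small ratios of miR-423-5p and miR-3184-3p turned below 0 on the log2 scale with TMM factors (-0.92 and -0.64), and those of miR-423-3p and miR-3184-5p were then -3.32 and -2.99.

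Against the input, the EVEN library had 16.97-fold more miR-423-5p (15.996 to 18.0) and 26.9-fold more miR-3184-3p (24.0 to 30.2). miR-3184-5p was 2.60-fold higher (1.70 to 3.83), and miR-423-3p had a ratio of 1.42 (1.12 to 1.78), under the threshold. This was the only one of the 6 comparisons in which a miRNA and its antisense partner fell on different sides of 2-fold by library totals. Among 464 miRNAs tested, 18.3% passed 2-fold upwards in EVEN and 52.2% downwards, beside 3 and 0 of these 4. With the 10 most abundant miRNAs dropped from library totals miR-423-3p also passed 2-fold, at a log2 ratio of 1.26, and with opposite-strand rows summed miR-3184-5p, at 0.70, no longer did.

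The ODD library had all 4 miRNAs above the input: miR-423-5p 15.8-fold (15.1 to 16.5), miR-3184-3p 20.6-fold (18.8 to 22.6), miR-423-3p 7.04-fold (6.58 to 7.54) and miR-3184-5p 10.4-fold (8.99 to 11.97). Of the 468 miRNAs tested, 13% passed 2-fold upwards and 68.6% downwards, beside 4 and 0 here, and their median log2 ratio was -2.19. The LacZ control also had all 4 above the input, beside 18.1% of 475 miRNAs tested that passed 2-fold upwards and 34.3% that passed it downwards. There miR-423-5p was 5.05-fold higher (4.78 to 5.34), miR-423-3p 3.83-fold (3.53 to 4.15), miR-3184-5p 6.74-fold (5.75 to 7.90) and miR-3184-3p 6.88-fold (6.16 to 7.69). The LacZ library, made with probes that have no target in these cells, thus held a larger share of all 4 miRNAs than the input. The comparisons with the input share that library, and those with LacZ share the LacZ library.

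**Figure D3:**
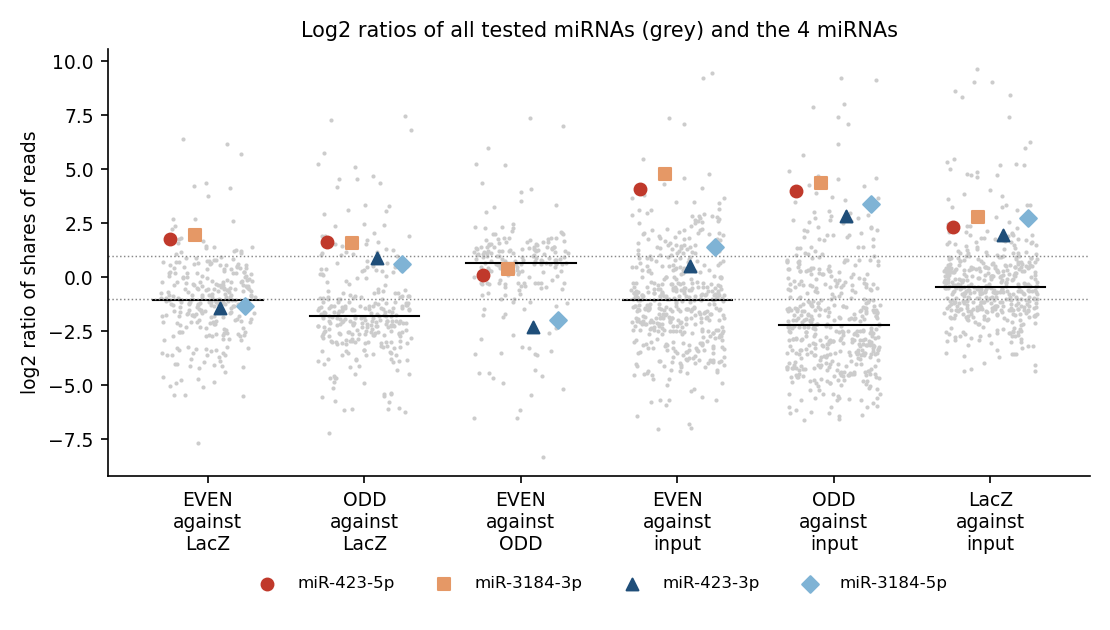
Log2 ratio of the shares of reads in 6 comparisons of 2 libraries. Grey points are the other tested miRNAs, black lines the median of all tested miRNAs, dotted lines 2-fold, and coloured symbols the 4 miRNAs of the locus, which lie above the median in every comparison with LacZ or input except miR-423-3p and miR-3184-5p in EVEN against LacZ.

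The balance of the arms was followed within each library, where no scaling between libraries is needed. Of the reads of the MIR423 hairpin, the 5p arm took 95.7% in EVEN (95% exact binomial interval 94.7 to 96.6), 80.7% in ODD (79.8 to 81.5), 71.1% in LacZ (69.5 to 72.7) and 65.0% in the input (63.7 to 66.4). The intervals of the 4 libraries did not overlap. Put as a ratio, there were 22.2 miR-423-5p reads for each miR-423-3p read in EVEN and 4.17 in ODD, against 2.46 in LacZ and 1.86 in the input. The ratio was 9.03 times as large in EVEN as in LacZ (exact conditional interval 7.11 to 11.6), 1.70 times as large in ODD as in LacZ (1.54 to 1.86) and 5.33 times as large in EVEN as in ODD (4.22 to 6.80).

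The MIR3184 hairpin was the mirror image, with its 3p arm in place of the 5p arm. The 3p arm took 95.4% of its reads in EVEN (93.4 to 96.9), 79.8% in ODD (78.1 to 81.4), 66.98% in LacZ (63.9 to 69.98) and 66.5% in the input (63.5 to 69.5). Its 3p to 5p ratio was 10.1 times as large in EVEN as in LacZ (6.74 to 15.7) and 1.95 times as large in ODD as in LacZ (1.64 to 2.31). LacZ and input did not differ beyond counting error in this hairpin, with 1.02 times the ratio (0.840 to 1.24), whereas in the MIR423 hairpin the LacZ ratio was 1.32 times that of the input (1.20 to 1.46).

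All hairpins with both arms named in the table give the scale of such shifts. With at least 20 reads of the arms summed in EVEN and in LacZ, 103 hairpins could be compared, MIR423 and MIR3184 among them, and 19.4% moved by at least 10 percentage points. The median size of the move was 1.52 points. The 5p share of EVEN minus that of LacZ was 24.6 points for MIR423 and -28.4 points for MIR3184, and 8 and 6 hairpins moved more. With at least 100 reads, 55 hairpins were left, and 4 and 2 of them moved more. In ODD against LacZ, 16.8% of 125 hairpins moved by at least 10 points. There the difference, ODD minus LacZ, was 9.57 points for MIR423 and -12.8 points for MIR3184, and 23 and 15 hairpins moved more. Both hairpins of the locus report overlapping sequence, so they cannot be taken as independent cases. The locus was chosen because the arm with more reads in each hairpin had high EVEN and ODD ratios over LacZ. The counts behind that choice also enter these arm shares. The moves of MIR423 and MIR3184 and their places among the hairpins were thus partly set in advance, and nothing is read from those places.

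The hairpins with the largest gain in 5p share, EVEN minus LacZ, were miR-92b (92.6% in EVEN, 57.7% in LacZ), miR-193b (95.1% and 62.1%) and miR-483 (91.9% and 66.7%). Those with the largest loss were miR-409 (13.0% in EVEN, 72.4% in LacZ), miR-188 (33.3% and 88.5%) and miR-378a (24.3% and 79.2%), which rest on 23, 84 and 74 reads in EVEN. In ODD minus LacZ, the largest gains were those of miR-15b (97.4% in ODD, 55.3% in LacZ), miR-331 (39.7% and 1.19%) and miR-193b (88.5% and 62.1%), and the largest losses those of miR-409 (2.46% and 72.4%), miR-17 (2.27% and 72.0%) and miR-378a (24.2% and 79.2%). The shifts of MIR423 and MIR3184 with ODD probes were smaller than any of these.

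**Figure D4:**
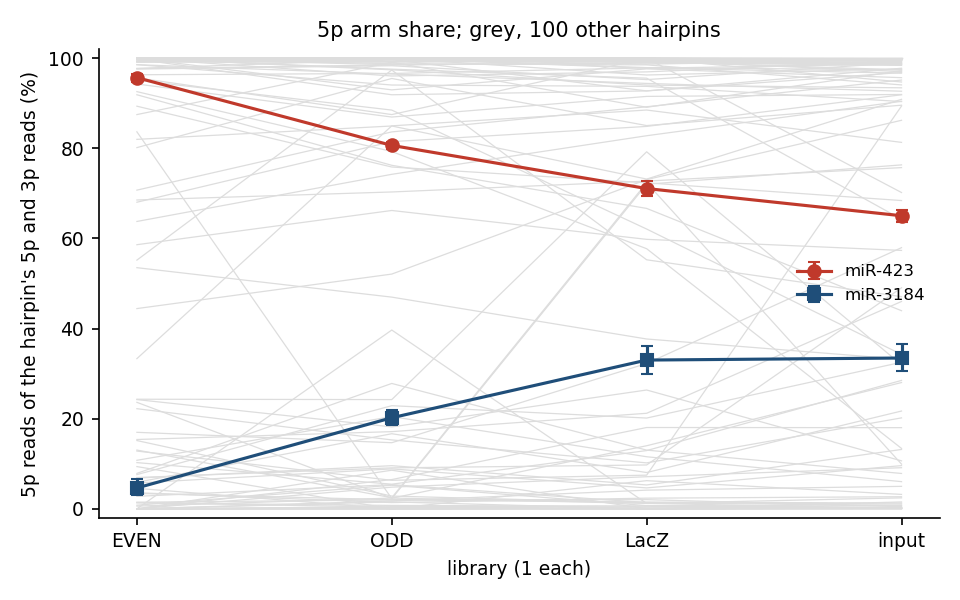
Share of 5p reads among the 5p and 3p reads of a hairpin, in percent, in the EVEN, ODD, LacZ and input libraries (1 each). Coloured symbols with 95% exact binomial intervals are miR-423 (95.7%, 80.7%, 71.1% and 65.0%) and miR-3184 (4.64%, 20.2%, 33.0% and 33.5%), and grey lines are 100 other hairpins with at least 20 reads of the arms summed in each library, most of which stay near 0% or 100%.

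The strands of the locus were compared in the same way. miR-3184-3p took 24.7% of the reads of the pair with miR-423-5p in EVEN (22.97 to 26.5), 21.3% in ODD (20.4 to 22.1), 21.98% in LacZ (20.5 to 23.5) and 17.1% in the input (15.9 to 18.4). miR-3184-5p took 26.2% of the pair with miR-423-3p in EVEN (18.1 to 35.6), 22.2% in ODD (20.5 to 24.0), 25.4% in LacZ (23.0 to 27.98) and 16.2% in the input (14.6 to 17.9). Within a library the antisense shares of the arms were thus close to each other, although the arms themselves differed by up to 22.2 times in reads.

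The ratio of antisense to sense reads in the miR-423-5p pair over that in the miR-423-3p pair was 0.926 in EVEN (0.588 to 1.50), 0.947 in ODD (0.844 to 1.06), 0.825 in LacZ (0.704 to 0.968) and 1.07 in the input (0.921 to 1.24). LacZ was the only library in which this interval lay apart from 1. Over the whole locus the MIR3184 rows held 24.8% of the reads in EVEN, 21.4% in ODD, 23.0% in LacZ and 16.8% in the input. Against the input, the ratio of miR-3184-3p to miR-423-5p was 1.59 times as large in EVEN (1.39 to 1.80), 1.31 times in ODD (1.18 to 1.44) and 1.36 times in LacZ (1.20 to 1.54). Between ODD and LacZ it did not differ beyond counting error (0.959, 0.865 to 1.06), whereas in EVEN it was 1.17 times that of LacZ (1.02 to 1.33). The ratio of miR-3184-5p to miR-423-3p was 1.83 times that of the input in EVEN (1.13 to 2.90). It was 1.47 times in ODD (1.26 to 1.73) and 1.76 times in LacZ (1.47 to 2.11). In ODD it was 0.836 times that of LacZ (0.707 to 0.988). No source used here says whether reads were assigned by strand. Reads of a mature miRNA and of its exact complement cannot be told apart without it, so the sense and antisense rows are not independent measurements. The part of the counting in these shares was not tested.

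RefSeq places 15 other pairs of listed mature miRNAs with at least 20 reads in a library on opposite strands with overlapping positions, and 4 of them had at least 20 reads of the pair in every library. In 2 of these 4 the weaker miRNA took shares of like size. Their sequences are shown for comparison, with seeds in capitals.
miR-103a-3p: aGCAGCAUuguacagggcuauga
miR-103b: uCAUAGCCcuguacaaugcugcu
miR-24-3p: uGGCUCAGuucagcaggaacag
miR-3074-5p: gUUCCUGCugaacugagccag
miR-103b, the reverse complement of miR-103a-3p over 23 bases, took 25.9% of its pair in EVEN (22.7 to 29.4), 19.8% in ODD (18.97 to 20.6), 18.3% in LacZ (17.1 to 19.6) and 9.37% in the input (8.98 to 9.78). miR-3074-5p, complementary to miR-24-3p over 20 bases, took 32.1% in EVEN (28.8 to 35.5), 24.6% in ODD (23.9 to 25.3), 30.2% in LacZ (29.1 to 31.4) and 24.5% in the input (24.1 to 24.9). RefSeq has miR-24-3p at 2 loci and miR-3074-5p at 1, so this share is not that of 1 locus alone. miR-103a-3p and miR-103b each have 2 loci. As with the miR-3184 arms, the EVEN share was the highest and the input share the lowest for both miR-103b and miR-3074-5p. The EVEN and LacZ intervals overlapped for miR-3074-5p and for both miR-3184 arms. So did the EVEN and ODD intervals for miR-3184-5p and the ODD and input intervals for miR-3074-5p. Overlap alone does not decide whether 2 libraries differ beyond counting error. Compared directly, the ratio of miR-3184-3p to miR-423-5p was 1.17 times as large in EVEN as in LacZ (1.02 to 1.33). That of miR-3184-5p to miR-423-3p did not differ beyond counting error (1.04, 0.637 to 1.65). Nor did it between EVEN and ODD (1.24, 0.768 to 1.96). For miR-3074-5p no direct ratio was computed.

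The remaining pairs with enough reads went the other way. miR-374c-3p, which overlaps miR-374b-5p by 22 bases, had 0 reads in all 3 pull-downs and 2 in the input, 0.0770% of the pair (0.00932 to 0.278). The exact intervals of its zeros reach up to 10.6% in EVEN, 8.81% in ODD and 2.11% in LacZ. miR-3120-5p, which overlaps miR-214-3p by 18 bases, had 1 read in the input and 0 reads in the pull-downs. The exact intervals of these zeros reach up to 8.41% in EVEN, 0.0925% in ODD and 0.777% in LacZ. A sizeable antisense share was therefore not a feature of every pair. Among the pairs with fewer reads, miR-3065-5p took 31.3% of its pair with miR-338-3p in LacZ and 15.2% in the input, miR-499b-3p 27.2% of its pair with miR-499a-5p in the input, and miR-374c-5p 36% of its pair with miR-374b-3p in LacZ and 16.5% in the input. miR-203b-5p took 30.7% of its pair with miR-203a-3p in LacZ, miR-642b-3p 15.4% of its pair with miR-642a-5p in LacZ and 7.87% in the input, and miR-3913-3p 40.2% of its pair with miR-3913-5p in the input. miR-3120-3p took 4% of its pair with miR-214-5p in ODD, 3.75% in LacZ and 1.63% in the input, miR-338-5p 29.5% of its pair with miR-3065-3p there and miR-219a-2-3p 3.70% of its pair with miR-219b-5p there. miR-24-1-5p and miR-550b-2-5p, opposite miR-3074-3p and miR-550a-3p, had 0 reads in every library. Several shares of the pairs with fewer reads have wide exact intervals. In LacZ, miR-374c-5p had 9 reads (18.0% to 57.5%) and miR-642b-3p 6 (5.86% to 30.5%). In the input, miR-219a-2-3p had 1 read (0.0937% to 19.0%). Differences between libraries in these shares were not tested.

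**Figure D5:**
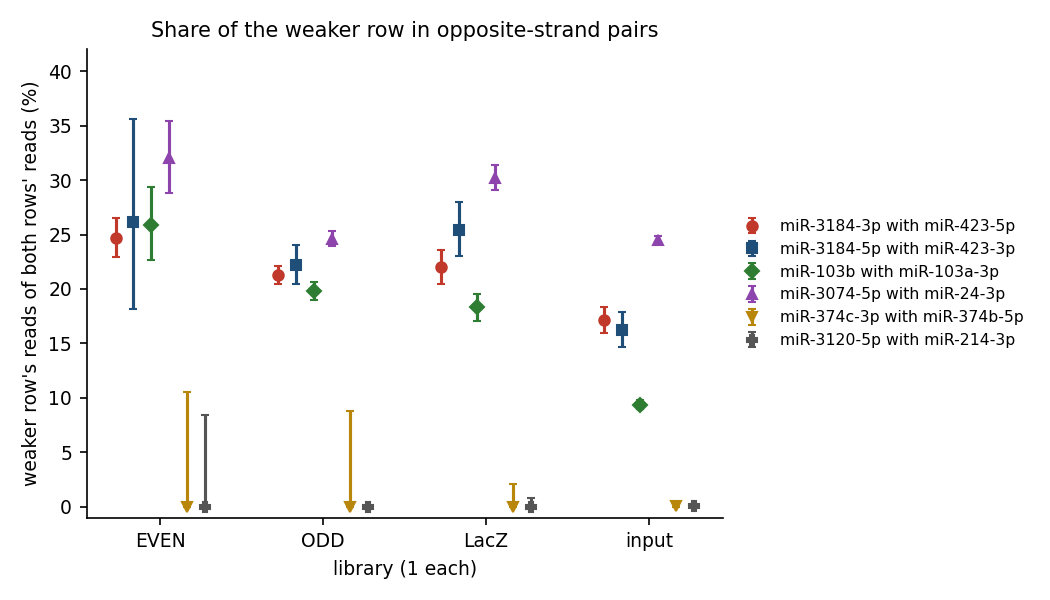
Reads of the weaker miRNA as a percentage of both miRNAs' reads in 6 pairs from opposite strands with at least 20 reads in each library, in the EVEN, ODD, LacZ and input libraries (1 each), with 95% exact binomial intervals. The miR-3184, miR-103b and miR-3074-5p shares lie between 9.37% and 32.1%, and miR-374c-3p and miR-3120-5p lie at or near 0.

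The miRNAs whose pattern was most like that of miR-423-5p were ranked by the distance between log2 ratios over the input in EVEN, ODD and LacZ, among 134 miRNAs with at least 20 reads in all 4 libraries. The nearest was its own antisense, miR-3184-3p, at a distance of 0.89. miR-760 followed at 0.97, with log2 ratios of 4.13 in EVEN, 4.26 in ODD and 3.27 in LacZ, beside 4.08, 3.98 and 2.34 for miR-423-5p. miR-483-5p, encoded within IGF2, came next at 1.45, then miR-193b-5p at 1.85 and miR-744-5p at 1.92. For miR-423-3p, whose log2 ratios were 0.52, 2.82 and 1.94, the nearest was miR-941 at 0.90, with 0.87 in EVEN, 3.47 in ODD and 1.43 in LacZ. miR-103b (1.14), its antisense miR-3184-5p (1.33), let-7c-5p (1.88) and miR-296-3p (1.95) came next. All ratios share the input library, and the 4 libraries of a pattern are few. miR-423-5p and miR-3184-3p were both part of the choice of the locus by their EVEN and ODD ratios over LacZ. Their nearness was thus partly set in advance. Sense and antisense rows also cannot be taken as independent, so nothing is read from the nearness of a miRNA to its antisense.

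Exon 2 of HIPK3, 1099 bases at chr11:33286413-33287511 on the plus strand of GRCh38, was searched on its sense strand for the complements of the seeds. GCCCCTC, for the shared seed of miR-423-5p and miR-3184-5p, ACCGAGC, for miR-423-3p, and GAGACTT, for miR-3184-3p, each occurred 0 times in the exon and 0 times across the junction that closes the circle. Of 4189 other exons of protein-coding transcripts within 10% of this length, 17.02% held GCCCCTC, 2.91% ACCGAGC and 6.42% GAGACTT. The shorter complement of bases 2 to 7 of miR-3184-3p, AGACTT, occurred 1 time, and those of the other seeds did not occur. The absence of a match says only that these letters are not in this exon.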

How the data were processed

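One deposited table holds raw counts for each mature miRNA in 4 libraries. A second deposited table holds CPM, and these equal the counts divided by library totals and rescaled to within 1.46e-11 CPM. Per the labels' protocols, the QIAseq miRNA kit was used, with single-end NovaSeq sequencing. The build is GRCh38, per the submitters' processing notes. Not given in the sources used here are the aligner, the miRNA annotation, whether strand and molecular identifiers were used, and how reads that fit several miRNAs were counted. Uncollapsed copies would make the counting intervals too narrow.

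The 4 miRNAs and all lists were chosen with earlier results of these data known. A miRNA was tested when either library of a comparison had 20 reads or more, and called at 2-fold from log2 shares computed after adding 0.5 to each count. Here tested and called name this rule and no significance test. Folds are ratios of shares without the 0.5. Shares do not give absolute amounts. Intervals are 95% exact Clopper-Pearson, conditional for folds, or exact conditional odds ratios for ratios of ratios. For CPM, a count of 0 was given the limit of 3 counts. Arms were paired by name among 863 hairpins with both arms listed. Opposite-strand pairs came from RefSeq mature positions on GRCh38.p14, exons from GENCODE 29.

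Besides the 4 miRNAs, the text names same-seed miRNAs, the 5 most alike of miR-423-5p and of miR-423-3p, measured opposite-strand pairs and the 3 hairpins that moved most each way. Alternatives used edgeR 4.0.16 (TMM factors), DESeq2 1.42.0 (median-of-ratios size factors), library totals that drop the 10 most abundant miRNAs, other count minimums, added constants and thresholds, the deposited CPM and summed opposite-strand rows. Only the fold intervals and 2-fold calls of EVEN and ODD against LacZ were tested on simulated counts, which held counting error alone. Python 3.11.15, pandas 2.3.3, numpy 2.4.6, scipy 1.17.1, matplotlib 3.10.9 and R 4.3.3 were used.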

Additional observations from a re-analysis of the deposited data

Results flagged for a closer look

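miR-423-3p had log2 ratios of opposite sign with the probe sets, -1.42 for EVEN over LacZ and 0.88 for ODD over LacZ. miR-3184-5p did too, at -1.35 for EVEN over LacZ and 0.62 for ODD over LacZ. By library totals the ODD ratios did not pass 2-fold, and the EVEN ratios lay 0.36 and 0.29 below the median over tested miRNAs. Each value comes from 1 library set against the same LacZ library, so the difference between probe sets was not tested. These complementary miRNAs also cannot be taken as independent cases. Both signs stayed under TMM factors, at -1.15 and 2.17 for miR-423-3p and -1.09 and 1.91 for miR-3184-5p in EVEN and ODD over LacZ.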

How the results depend on the processing

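No called ratio of the 4 miRNAs changed sign under any alternative. For EVEN against LacZ, the number at least 2-fold lower was 1 instead of 2 with median-of-ratios size factors and with library totals that drop the 10 most abundant miRNAs. For ODD against LacZ, the number called, all higher, was 4 instead of 2 with TMM factors, median-of-ratios size factors and totals without the 10 most abundant. These scalings move the median of all tested miRNAs for ODD over LacZ, -1.79 by totals, to -0.50, -0.35 and -1.10. For EVEN against input, 4 instead of 3 were called with those last totals and 2 with opposite-strand rows summed. At a 4-fold threshold 0 of the 4 were called, higher or lower, in EVEN or ODD against LacZ, and 1, lower, in EVEN against ODD. With opposite-strand rows summed, the 5p share of MIR3184 in LacZ was 29.9% instead of 33.0%. Minimums of 1 or 100 reads, 5 added to each count, the CPM and an interval that excludes 1 changed no count of calls. With at least 100 reads in all 4 libraries, 3 of the 5 miRNAs most like miR-423-5p and 2 of the 5 most like miR-423-3p stayed in their lists. EVEN was the shallowest library, and miR-3184-5p there rests on 28 reads. No paired analysis was possible because each group is 1 library.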
